A study of Mus musculus with 6 samples.

Results

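The barcodes described here are testis cells with transcripts of Ccna1 and Aurka, taken from single-cell RNA-seq libraries of mouse testis. A barcode was kept when it held at least 10000 UMIs (unique molecular identifiers, each counting 1 captured transcript), when Prm1, Prm2, Tnp1 and Tnp2 together made less than 1% of its UMIs, when Ccna1 and Aurka together had at least 5 UMIs, and when Ssxb1 and Ssxb2 together had fewer than 5. This gate held 2799 of the 48939 barcodes (5.72%), or 32.6% of the 8576 barcodes with at least 10000 UMIs. Ccna1 encodes cyclin A1, the cyclin that male germ cells need to leave meiotic prophase, and Aurka encodes Aurora A, the kinase that matures centrosomes and builds spindle poles. The barcodes were thus chosen by measured values, the UMIs of these 8 genes and the total, so the presence of Ccna1 and Aurka is no finding.

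In male meiosis a spermatocyte spends a long pachytene and diplotene stage with paired chromosomes and a silenced X chromosome, and then passes quickly through the pair of meiotic divisions to give round spermatids. Division is driven by cyclin-dependent kinase with A and B cyclins, by Polo and Aurora kinases, and by the anaphase-promoting complex, which destroys cyclins and securin. Because the divisions are short, few cells of a testis are caught in them.

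Wild-type males of strain C57BL/6 (C57BL/6N in the methods) received food rich in fat (HFD) or poor in fat (LFD) for 2 weeks, and the whole dissociated testis was taken at 8 weeks of age, with no transgene, sorting or other treatment. Each diet had 3 libraries and, by the methods, 3 mice, though no label ties a library to a mouse. Diets are given as the sample titles give them. The names of the deposited files carry the opposite diet, and if these are right each difference between diets changes its sign.

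Libraries held 5753 to 11095 barcodes, and between 12 and 28 barcode sequences were shared by any 2 libraries. Only 1 shared barcode lay in the gate. Haemoglobin transcripts separated replicate 1 of both diets, with 0.0209 CPM (UMIs of a gene scaled to a common total) in HFD and none in LFD, from the other libraries, with 30.5 to 99.7 CPM. Values within replicate 1 and within replicates 2 and 3 are therefore given for the main differences in shares. In the gated barcodes haemoglobin stayed at or below 0.489 CPM in every library.

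The gated barcodes were deep, with a median of 36775 UMIs (10087 to 285897) and a median of 6002 genes. Both gate genes were detected in 2597 barcodes (92.8%), and both reached 5 UMIs in 1282 (45.8%). At the threshold, 319 barcodes had exactly 5 UMIs of the pair and 402 barcodes just outside had 4. When each barcode was thinned to 10000 UMIs before the gate was read, 1182 of the 2799 were still inside. A count threshold asks for a higher level in a shallow barcode than in a deep one, so levels of Ccna1 and Aurka along any depth difference are partly set by the rule.

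Pooled over gated barcodes, Ccna1 stood at 206, 143 and 204 CPM in the HFD libraries and at 202, 226 and 236 CPM in the LFD libraries. Aurka stood at 254, 215 and 267 CPM against 245, 247 and 250 CPM. Among 29 to 65 barcodes per library with macrophage markers, Ccna1 stood at 15.2 to 110 CPM and Aurka at 41.8 to 129 CPM, at median depths of 2925 to 4823 UMIs. Whether free RNA gave these counts was not tested. The pooled gated level of each gene lay above the highest macrophage value in every library. Because the rule asked for UMIs of these genes, this is a description and no test, and a single barcode can pass at a lower level.

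The sequences just before the start of 4 genes on which the stage results turn are shown because 3 of them (Ccna1, Aurka and Plk1) were highest in the same barcodes, while Pou5f2, the gene most particular to the gate by level, was highest earlier. Each line gives 110 bases, 5′ to 3′ on the gene's strand, ending at the base before the RefSeq start site (GRCm38.p6). Capitals mark CCAAT or its reverse complement ATTGG, the box bound by NF-Y, and TTTGAA or its reverse complement TTCAAA, the core of the cell-cycle homology region.
Ccna1, chr3:55055056-55055165, minus strand: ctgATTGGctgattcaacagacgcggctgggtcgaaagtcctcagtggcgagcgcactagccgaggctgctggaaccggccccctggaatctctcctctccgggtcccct
Aurka, chr2:172370571-172370680, minus strand: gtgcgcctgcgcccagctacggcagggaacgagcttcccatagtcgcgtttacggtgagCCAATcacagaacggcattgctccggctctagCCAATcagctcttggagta
Plk1, chr7:122159325-122159434, plus strand: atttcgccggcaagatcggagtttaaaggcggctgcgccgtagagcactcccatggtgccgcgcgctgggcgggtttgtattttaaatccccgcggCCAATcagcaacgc
Pou5f2, chr13:78024792-78024901, plus strand: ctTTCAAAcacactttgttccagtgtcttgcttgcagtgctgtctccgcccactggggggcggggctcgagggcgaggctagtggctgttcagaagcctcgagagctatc
Aurka had 2 CCAAT boxes, Ccna1 and Plk1 had 1 each, and Pou5f2 had none but 1 TTCAAA. Of 32851 RefSeq windows of the same length, 20.2% held CCAAT and 6.40% held TTTGAA on either strand. The matches were not tested against these shares and are given as a description. The window of Plk1 overlaps an exon of Gm15489, a gene on the opposite strand in the GENCODE annotation.

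The data went only partly with the idea of a spermatocyte at division. The markers that the rule did not use, Tbpl1 and Cdc25c, both lay between the levels of neighbouring barcodes. Tbpl1, which encodes the TBP-like factor TRF2 needed for spermiogenesis, stood at 863 ± 88.4 CPM in gated barcodes (SD, n = 6 libraries), between its neighbours at 320 ± 33.4 and 1041 ± 79.8 CPM. Cdc25c, the phosphatase that activates cyclin-dependent kinase at entry into division, was scarce at 14.7 ± 3.44 CPM, and its level was higher in a neighbouring gate of barcodes with at least 5 Ssxb1 and Ssxb2 UMIs (26.5 ± 3.42 CPM). The other neighbouring gate, with at least 5 Piwil1 UMIs and fewer than 5 of the gate genes, had 2.36 ± 1.24 CPM. Ssxb1 and Ssxb2 are near-identical X-linked genes whose reads can be split between copies, so only their sum was used. Barcodes are therefore called gated barcodes below, and the neighbours the Piwil1 gate (550 barcodes) and the Ssxb gate (794 barcodes). All comparisons between them are descriptions with no test, because transcripts chose the barcodes.

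Gated barcodes lay between their neighbours for most genes. Of 4955 genes at 50 CPM or more in 1 of the 3 gates, 3937 (79.5%) had a gated mean between both neighbours, 254 were above both in all 6 libraries and 135 were below both in all 6. A gene could meet the 50 CPM limit in the gated barcodes alone, so the count above both is partly set by this limit. The gene highest relative to both was Pou5f2, a POU-domain transcription factor gene of the testis (chr13:78024902-78026295), at 88.3 ± 31.8 CPM against 17.3 ± 4.51 CPM in the Piwil1 gate and 5.96 ± 3.23 CPM in the Ssxb gate. Library by library it stood at 115, 95.9 and 127 CPM in HFD and 90.1, 55.7 and 46.8 CPM in LFD. The lowest of these gated values was still above the mean of either neighbour.

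The other genes that stood above both neighbours were led by Ppp1r27, a regulatory subunit of protein phosphatase 1 (64.9 against 23.2 CPM in the Piwil1 gate and 19.0 CPM in the Ssxb gate), H1fnt, the linker histone of spermatids (106 against 40.6 and 38.1 CPM), and Cst8, a reproductive-tract cystatin (108 against 37.2 and 41.9 CPM). Iqcf1, Nubp2, Tex29, Kcnj9, the antisense gene Lef1os1 and Tex35 followed, each above both neighbours in 6 of 6 libraries. The genes lowest relative to both were led by Hat1, a histone acetyltransferase of newly made histones (39.7 against 74.8 and 81.2 CPM). They included Bmi1 (41.2 against 75.7 and 68.7 CPM) and Ring1 (24.1 against 63.3 and 36.6 CPM), both of Polycomb repressive complex 1, and Syce3, of the synaptonemal complex central element (224 against 340 and 324 CPM).

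The gated barcodes were not uniform. A spermatid share was computed for each barcode, as the UMIs of 22 early spermatid genes (such as Acrv1, Spaca1, Tssk1 and Lyzl1) in percent of these plus 6 pachytene genes (Sycp1, Sycp3, Hormad1, Piwil1, Tdrd5 and Mybl1). This axis was set after the data had been seen, with 6 of 10 listed pachytene markers and 22 of 24 listed early spermatid genes. Of those left out, Spag6 was highest at 90% or more, Nxt1 and Dkkl1 at 50% to 75%, Pou5f2 at 25% to 50%, and Ybx2 and Tex101 under 25%. Its median was 68.2% to 96.5% in gated barcodes of the 6 libraries, 8.82% to 11.9% in the Piwil1 gate and at most 96.7% in the Ssxb gate, where no library was below 95%. Cut into 5 ranges, 282 gated barcodes (10.1%) had a share under 25%, 283 (10.1%) had 25% to 50%, 499 (17.8%) had 50% to 75%, 302 (10.8%) had 75% to 90%, and 1433 (51.2%) had 90% or more. With all genes of both lists the share reached 90% in only 136 barcodes (4.86%) and 75% in 1305 (46.6%), and the barcodes of the last range had a median of 83.9%, so their number depends on the genes and the limit chosen. Within 2.5 points of the cuts lay 61, 56, 117 and 150 barcodes, and LFD replicate 3 had only 9 barcodes in each of the first 2 ranges.

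Depth followed this axis and then dropped. Median UMIs were 48560 in the first range, 71537 in the second, 63289 in the third (quartiles 30980 and 102258), 30553 in the fourth and 33192 in the last. The third range was mixed, with both very deep and shallow barcodes, as the plot of total UMIs shows. After thinning to 10000 UMIs the median number of genes was 3558, 3424, 3313, 3332 and 3436. Barcodes among the highest doublet scores of their library numbered 3, 1, 13, 11 and 38 in the 5 ranges (0.353% to 3.64% of a range). A doublet of a pachytene cell and a spermatid would also have a middle share, and its part in the ranges was not tested beyond these scores.

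**Figure D1:**
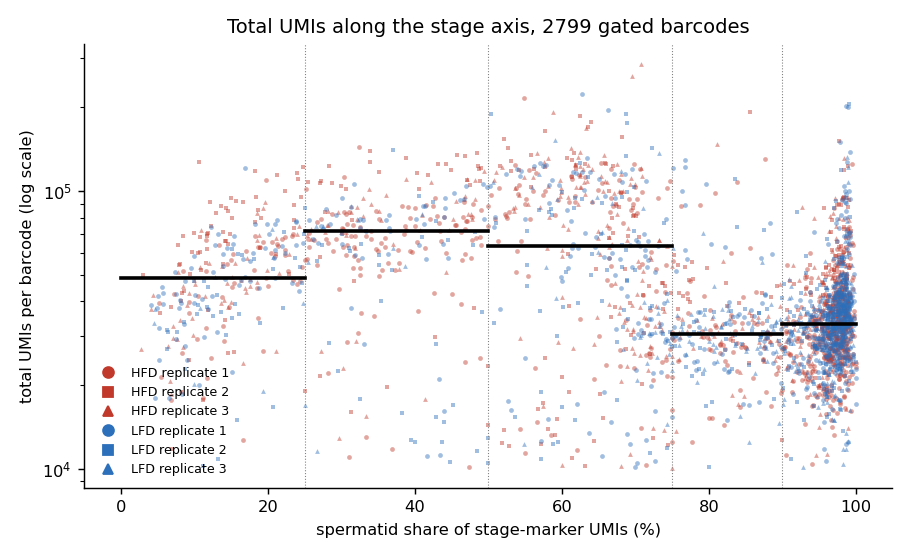
Each point is 1 of 2799 gated barcodes, with the spermatid share of stage-marker UMIs (%) on the x axis and total UMIs (log scale) on the y axis. Dotted lines mark the cuts at 25%, 50%, 75% and 90%, and black bars the median UMIs of each range, which is 71537 between 25% and 50% and 30553 between 75% and 90%.

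The gate genes, Plk1 and Ccnb1 were highest between 75% and 90%. Plk1, the Polo kinase of spindle assembly and cytokinesis, stood at 20.8 ± 20.0 CPM under 25%, 21.5 ± 10.3 at 25% to 50%, 122 ± 14.4 at 50% to 75%, 188 ± 28.3 at 75% to 90% and 92.6 ± 20.9 at 90% or more (SD, n = 6 libraries). Ccnb1, which encodes cyclin B1, went through 31.2 ± 16.2, 23.5 ± 15.7, 164 ± 28.2, 339 ± 29.4 and 166 ± 17.3 CPM. Both had their highest level at 75% to 90% in 6 of 6 libraries, and neither was used by the gate or by the axis. The gate genes followed the same course, with Ccna1 at 409 ± 35.0 CPM and Aurka at 486 ± 56.4 CPM in the fourth range, against 177 ± 42.9 and 129 ± 34.9 CPM in the last. Their median summed UMIs per barcode were 6, 15, 47, 29 and 9, so that the first range (28.7% of it at exactly 5 UMIs) and the last range (13.8%) held most of the barcodes near the threshold.

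Most division kinases and their partners had this course. Of 14 list members (with scaffold and targeting subunits included), 9 (64.3%) were highest between 50% and 90%, against 2438 of 9933 genes (24.5%) at 10 CPM or more in a range. Aurkb and Aurkc, the Aurora kinases of the chromosomal passenger complex, were highest at 50% to 75% (50.8 ± 5.24 and 72.2 ± 8.67 CPM), as was their partner Birc5, which encodes survivin (336 ± 26.8 CPM). Haspin, the kinase that marks histone H3 for that complex, reached 897 ± 118 CPM at 75% to 90% and stayed at 751 ± 79.6 CPM in the last range. Bub1, a checkpoint kinase, went the other way and was highest at 90% or more (91.9 ± 10.2 CPM).

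Among the anaphase-promoting complex and checkpoint genes, 9 of 26 (34.6%) were highest between 50% and 90% and 12 (46.2%) under 25%. Of all genes, 24.5% and 37.7% were highest there. The activators moved together, with Cdc20 at 354 ± 63.0 CPM and Fzr1 at 190 ± 34.5 CPM in the fourth range against 118 ± 25.7 and 129 ± 31.7 CPM in the last. Espl1, which encodes separase, was highest at 50% to 75% (48.9 ± 5.29 CPM). The core subunits Anapc1 and Anapc4 and the checkpoint gene Mad2l1 were highest under 25% and lowest in the last range. Of the spindle, kinetochore and cytokinesis genes, 16 of 29 (55.2%) were highest under 25%, and 11 (37.9%) between 50% and 90%, among them Cenpe, Kif23, Spc25 and Nusap1. Kif2b, a kinesin-13, differed from them with 79.8 ± 35.2 CPM in the fourth range and 550 ± 87.6 CPM in the last.

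Cyclins and regulators of cyclin-dependent kinase were spread over the axis. Of 18 genes, 9 were highest under 25%, and 5 (27.8%) between 50% and 90%, a share near that of all genes. Cdk1 was highest at 50% to 75% (175 ± 31.0 CPM in 499 barcodes), while Cks2, its small subunit, was highest under 25% at 1142 ± 104 CPM and stood at 106 ± 31.5 CPM in the fourth range. Ccne2, which encodes cyclin E2, went from 88.6 ± 11.6 to 2.18 ± 1.01 CPM. Cdc25c was highest in the last range at 27.3 ± 1.07 CPM, and Cdc25a in the fourth at 120 ± 17.8 CPM.

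Most genes of earlier meiosis were highest under 25%, where 37.7% of all genes were. None of 13 meiotic recombination genes and none of 18 piRNA pathway genes was highest between 50% and 90%, where 24.5% of all genes were, while 11 and 12 of them were highest under 25% and 3 of the piRNA genes, Gtsf1 among them, at 90% or more. The synaptonemal complex genes off the axis were split, with 3 of 6 highest under 25%, Syce1 at 50% to 75%, and Syce2 and Syce3 at 90% or more. Of 11 cohesin genes, 6 were highest under 25%, 3 between 50% and 90% and 2 at 90% or more. Piwil1, the pachytene PIWI protein gene, was part of the axis and is given only as description, at 1122 ± 100 CPM in the first range and 14.4 ± 5.32 CPM in the last. Pou5f2 had a course of its own, at 35.0 ± 9.02, 205 ± 38.7, 199 ± 36.6, 36.6 ± 21.5 and 5.16 ± 2.17 CPM.

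**Figure D2:**
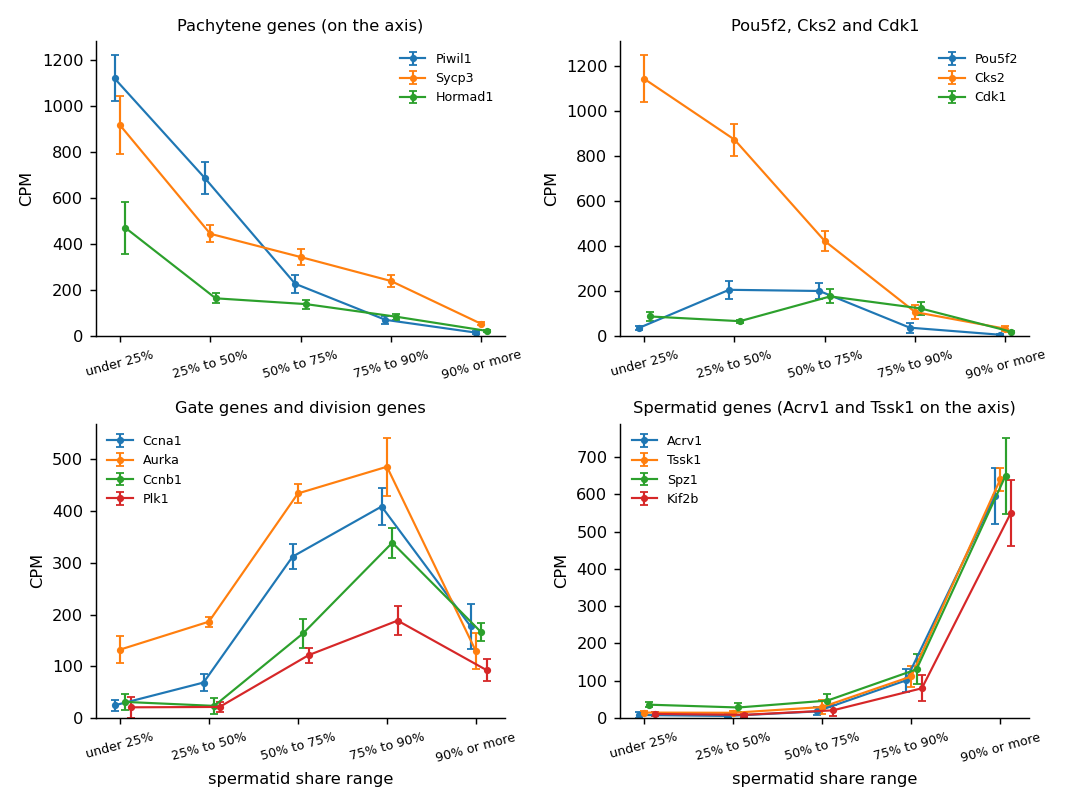
Mean CPM (y axis, n = 6 libraries, error bars SD) of named genes in gated barcodes over the 5 ranges of spermatid share (x axis). Pou5f2 is highest at 25% to 75%, Ccna1, Aurka, Ccnb1 and Plk1 at 75% to 90%, and Acrv1, Tssk1, Spz1 and Kif2b at 90% or more.

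Within the third range, 296 barcodes with 50000 UMIs or more and 203 shallower ones differed in these genes. Pou5f2 was 3.55 times and Cks2 2.66 times higher in the deep barcodes, each in 6 of 6 libraries. Ccnb1 was 2.15 times, Plk1 1.60 times and Ccna1 1.42 times higher in the shallow barcodes, also in 6 of 6. The gate's count threshold favours high Ccna1 in shallow barcodes, and its part in the other differences was not tested. High doublet scores were found in 8 deep and 5 shallow barcodes. The mean mitochondrial share was 2.18 times higher in the shallow part (3.14 ± 1.48% against 1.44 ± 0.202%), but libraries differed. It was 5.44% against 1.72% in HFD replicate 2, 1.73% against 1.66% in HFD replicate 3 and 1.54% against 1.37% in LFD replicate 3.

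Genes of the axis numerator were high in the last range by construction. Acrv1, an acrosomal protein gene, stood at 17.8 ± 10.8 CPM at 50% to 75%, 101 ± 29.8 at 75% to 90% and 596 ± 74.3 at 90% or more. Spz1, a spermatogenic helix-loop-helix factor gene off the axis that was chosen after its values were seen, stood at 46.9 ± 16.9, 130 ± 40.1 and 649 ± 103 CPM. Rec8, the meiotic cohesin gene, was also highest there, at 73.1 ± 6.07 CPM against 3.44 ± 3.53 at 50% to 75%. Crem, the activator of post-meiotic genes, had 142 ± 20.4 CPM in the first range and 618 ± 34.5 CPM in the last. The condensing spermatid marker Smcp reached 1962 ± 373 CPM in the last range, and the summed marker list, part of which the rule capped, ranged from 3654 to 5685 CPM in gated barcodes of the 6 libraries.

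X-linked transcripts were scarce in the first 3 ranges. They made 0.113 ± 0.0727% of UMIs under 25%, 0.0977 ± 0.0650% at 25% to 50% and 0.0805 ± 0.0508% at 50% to 75%. At 75% to 90% the share was 0.292 ± 0.0541% and at 90% or more 1.02 ± 0.117%, and no library of the last range (0.903% or more) overlapped any library of the earlier ranges. The Piwil1 gate had 0.129 ± 0.0534% and the Ssxb gate 0.786 ± 0.0611%, and since the rule capped Ssxb1 and Ssxb2 the share in gated barcodes is without barcodes rich in these X-linked genes. Cstf2, an X-linked polyadenylation factor gene, went from 2.85 ± 3.03 CPM at 50% to 75% to 39.4 ± 6.77 CPM in the last range, while its autosomal retrocopy Cstf2t went from 26.8 ± 1.87 to 4.54 ± 0.554 CPM. Pgk1 averaged at most 5.93 CPM in any range, and Pgk2, its testis retrocopy, went from 42.0 ± 8.97 to 564 ± 83.6 CPM. Retrocopies share sequence with their parents, and reads that the counting could not place are not in these values.

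Mitochondrial mRNAs went down along the axis. The 13 mRNAs made 3.12 ± 0.432% of UMIs under 25%, 2.45 ± 0.336% at 25% to 50%, 1.74 ± 0.328% at 50% to 75%, 1.31 ± 0.121% at 75% to 90% and 0.391 ± 0.0864% at 90% or more. All 13 were highest in the first range, where 37.7% of all genes were. mt-Co1, a subunit gene of cytochrome c oxidase, went from 4657 ± 656 to 731 ± 161 CPM. Pooled over all ranges, the gated barcodes lay between their neighbours here too, with 3.76% to 6.86% in the Piwil1 gate and 0.567% to 0.758% in the Ssxb gate. The last range alone, with 51.2% of gated barcodes, lay at 0.264% to 0.496%, below the Ssxb gate in every library.

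**Figure D3:**
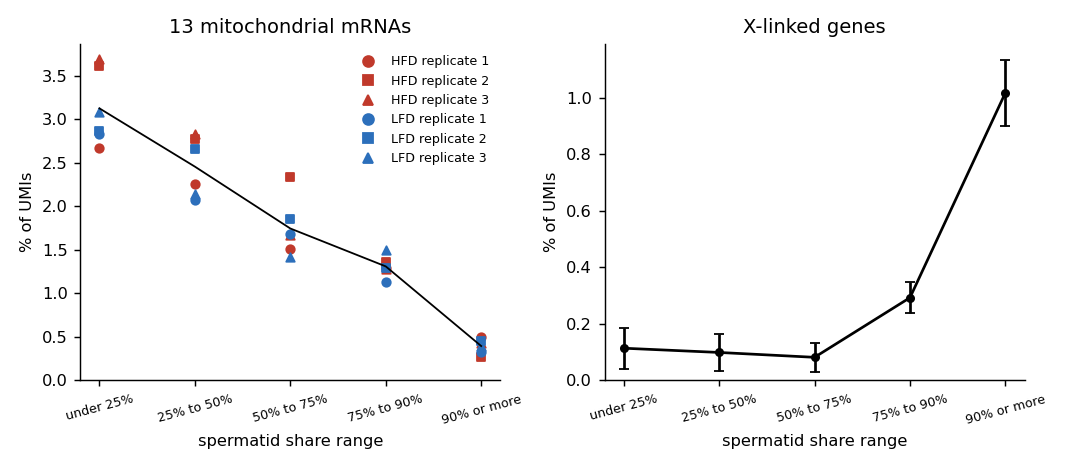
Share of UMIs (y axes, %) from the 13 mitochondrial mRNAs (left, 1 point per library, line at the mean) and from X-linked genes (right, mean and SD of 6 libraries) over the 5 ranges of spermatid share (x axes). The mitochondrial share goes from 3.12% to 0.391%, and the X-linked share from 0.113% to 1.02%.

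The first question about diet is whether it altered the number of gated barcodes. They made 7.34% of barcodes in HFD replicate 1 (95% exact binomial interval 6.83 to 7.87, for counting error only), 3.83% (3.42 to 4.27) in replicate 2 and 6.16% (5.62 to 6.73) in replicate 3. In LFD they made 8.56% (7.89 to 9.26), 3.61% (3.27 to 3.97) and 5.84% (5.25 to 6.48). The groups overlapped, with 5.77 ± 1.79% in HFD and 6.00 ± 2.48% in LFD (exact permutation test, two-sided, p = 1.0, n = 3 libraries per diet). HFD minus LFD was -1.22 points within replicate 1 and 0.270 points within replicates 2 and 3. Of barcodes with at least 10000 UMIs, the gate held 30.1 ± 8.34% in HFD and 37.2 ± 4.51% in LFD (exact permutation p = 0.4). With 3 libraries per diet the smallest p this test can give is 0.1, so no value of it can pass 0.05.

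Where the gated barcodes lay on the axis also differed between libraries. A spermatid share of 90% or more was found in 53.6%, 35.0% and 42.1% of gated barcodes in HFD and in 50.3%, 55.5% and 69.6% in LFD. The groups overlapped through replicate 1, with means of 43.6 ± 9.38% and 58.5 ± 10.0% (exact permutation p = 0.2, n = 3 per diet), and HFD minus LFD was 3.37 points within replicate 1 and -24.0 points within replicates 2 and 3. The range of 25% to 50% held 12.4 ± 2.31% in HFD and 6.49 ± 3.30% in LFD, and that of 75% to 90% held 9.10 ± 1.25% and 12.6 ± 2.25%. In both ranges the diets did not overlap (exact permutation p = 0.1 each, the smallest possible, among 5 ranges). Differences within replicate 1 and within replicates 2 and 3 were 6.66 and 5.46 points in the first of them and -1.49 and -4.52 points in the other.

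The mitochondrial share in gated barcodes was compared in the same way. It was 1.36%, 2.04% and 1.63% in HFD and 1.26%, 1.29% and 0.848% in LFD, which did not overlap (1.68 ± 0.341% against 1.13 ± 0.247%, exact permutation p = 0.1, the smallest possible, n = 3 per diet). The difference was 0.0992 points within replicate 1 and 0.767 points within replicates 2 and 3. Among barcodes at 90% or more the shares were 0.395 ± 0.119% and 0.388 ± 0.0669% (exact permutation p = 1.0), and at 75% to 90% they were 1.31 ± 0.0449% and 1.31 ± 0.185% (p = 1.0 by the same exact test). Within these ranges the sign differed, at 0.177 points within replicate 1 and -0.0780 points within replicates 2 and 3 for the last, and 0.164 and -0.0761 points for the fourth. In the other ranges HFD minus LFD was 0.400 points under 25%, 0.326 points at 25% to 50% and 0.190 points at 50% to 75%, and the diets overlapped (exact permutation p = 0.4, 0.2 and 0.7). Averaged over barcodes instead of pooled, the difference was 0.488 points, the groups overlapped (exact permutation p = 0.5), and the difference was -0.128 points within replicate 1 and 0.797 points within replicates 2 and 3.

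**Figure D4:**
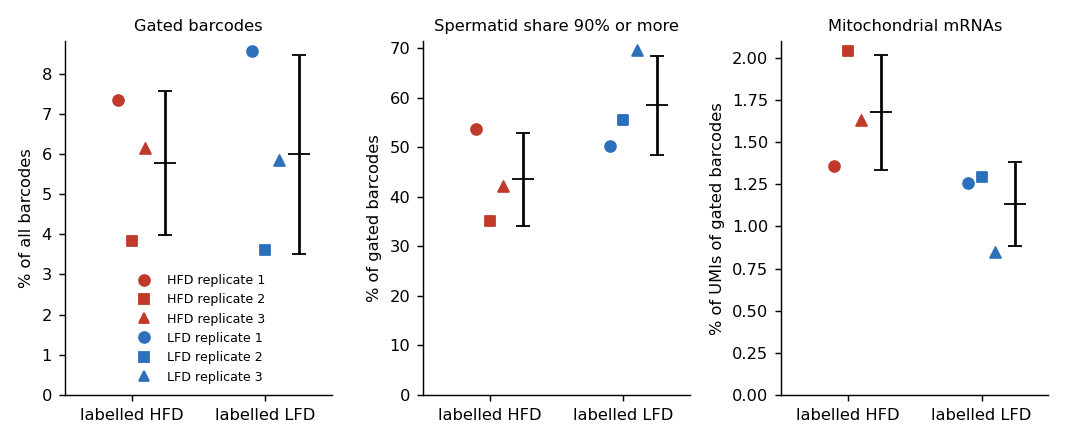
One point per library (shape for the replicate number, colour for the labelled diet) with mean and SD of 3 libraries per diet. The panels show gated barcodes in % of all barcodes, gated barcodes with a spermatid share of 90% or more in % of gated barcodes, and mitochondrial mRNAs in % of UMIs. Only the third panel has diets that do not overlap, at 1.36% to 2.04% against 0.848% to 1.29%.

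Gene by gene, no gene differed between diets at an adjusted p under 0.05 in gated barcodes (0 of 15703 genes, 0.0%, edgeR quasi-likelihood test with Benjamini-Hochberg adjustment, smallest adjusted p 0.106). An unadjusted p under 0.05 was found for 3476 genes (22.1%), 1446 higher in HFD (9.21%) and 2030 lower (12.9%). The groups of 4044 genes (25.8%) did not overlap. The count of calls rested on single libraries and on the tool, since leaving out HFD replicate 1 gave 391, leaving out LFD replicate 1 gave 1068, leaving out LFD replicate 2 gave 101, and DESeq2 gave 765.

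The genes at an unadjusted p under 0.05 followed the stage axis. Of 2790 tested genes that were 2-fold or more higher in the Ssxb gate than in the Piwil1 gate, 1384 were among them, 1375 lower and 9 higher in HFD. Of 3707 genes that were 2-fold or more higher in the Piwil1 gate, 1113 were among them, 1083 higher and 30 lower. The remaining 9206 genes contributed 979. Median log2 differences were -0.41 in the first class and 0.33 in the second, -0.17 and 0.02 among barcodes with a spermatid share of 50% to 90%, and 0.03 and -0.01 among those at 90% or more. The stage classes come from other barcodes of the same 6 libraries, and choosing barcodes by range of the axis narrows such differences by construction.

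Within the last range, the edgeR test called 0 of 12659 genes (0.0%) and gave an unadjusted p under 0.05 for 138 (1.09%). Without HFD replicate 1, 131 genes were called, 11 higher and 120 lower in HFD, and 20.3% had an unadjusted p under 0.05. No other library was left out within a range, so whether the low count rests on this library in particular was not tested. Between 50% and 90% the test called 0 of 11968 genes (0.0%), with 830 (6.94%) at an unadjusted p under 0.05, and 2 genes without HFD replicate 1. Below 90% it called 0 of 13951 (0.0%), with 1011 (7.25%) at an unadjusted p under 0.05. Libraries also differed in base composition. The rank correlation over 15684 genes between GC content and the gene's deviation in a library was 0.36 in HFD replicate 1, -0.32 and -0.22 in the other HFD libraries and 0.05 to 0.20 in LFD, so that HFD replicates 2 and 3 lay on the other side of 0 from the rest. With GC and length trends taken out together, no gene was called with all libraries and 6 without HFD replicate 1.

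**Figure D5:**
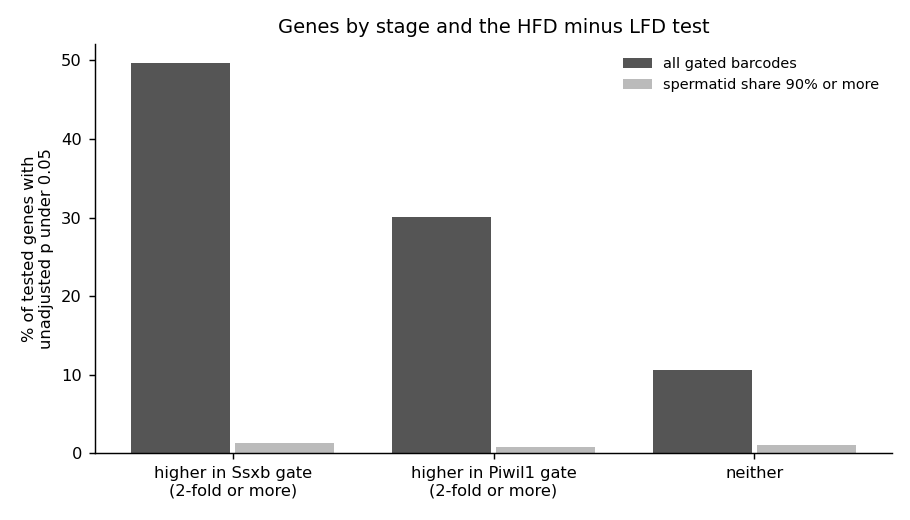
Percent of tested genes (y axis, starting at 0) with an unadjusted edgeR p under 0.05 for HFD minus LFD, for genes 2-fold or more higher in the Ssxb gate, 2-fold or more higher in the Piwil1 gate, and neither (x axis). Dark bars are all gated barcodes (49.6%, 30.0% and 10.6%) and light bars those with a spermatid share of 90% or more, where 138 of 12659 genes pass with all 6 libraries and 20.3% of genes without HFD replicate 1.

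By role, neither Tbpl1 nor Cdc25c, the late spermatocyte markers that the rule did not use, passed the test between diets. Log2 differences, HFD minus LFD, were 0.10 ± 0.14 (SE) for Tbpl1 and -0.45 ± 0.20 for Cdc25c (adjusted p = 0.213 by edgeR). Ccna1 and Aurka chose the barcodes in both diets. Their differences (-0.28 ± 0.17 and -0.03 ± 0.14) are therefore given only as description. Of 14 division kinases and partners, 6 had an unadjusted p under 0.05, against 22.1% of all genes, with 5 higher in HFD (Aurkb, Nek2, Ttk, Cdc7 and Tpx2) and Plk1 lower (median log2 difference over the list 0.29, against -0.01 over all genes). Plk1 had 88.1, 60.4 and 85.8 CPM in HFD and 91.9, 110 and 117 CPM in LFD, and none of the 6 passed adjustment (Plk1 adjusted p = 0.170).

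Of 24 early spermatid genes, 17 had an unadjusted p under 0.05, all lower in HFD (12.9% of all genes were), with a median log2 difference of -0.58 over the list and -0.01 over all genes. Spaca3, a sperm acrosome protein gene, had 284, 198 and 199 CPM in HFD and 333, 360 and 501 CPM in LFD (log2 difference -0.83 ± 0.19, adjusted p = 0.106 by edgeR). The diets did not overlap. Without HFD replicate 1 the adjusted p of Spaca3 by edgeR was 0.0289. No gene passed without HFD replicate 2, HFD replicate 3 or LFD replicate 3 (smallest adjusted p by edgeR 0.257, 0.443 and 0.506). The list median was -0.40 at 50% to 90% and -0.09 at 90% or more, but 22 of the 24 genes make up the axis numerator, so choosing barcodes by range narrows these differences by construction.

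Mitochondrial mRNAs and pachytene genes lay on the other side. Of 13 mitochondrial mRNAs 10 had an unadjusted p under 0.05, all higher in HFD (9.21% of all genes were), with a median log2 difference of 0.57. mt-Co1 had 2388, 3657 and 2926 CPM in HFD and 2227, 2264 and 1573 CPM in LFD (0.54 ± 0.15, adjusted p = 0.112 by edgeR, 0.0368 without HFD replicate 1), with no overlap. Like every gene, mt-Co1 did not pass without HFD replicate 2, HFD replicate 3 or LFD replicate 3. The list median was 0.13 at 50% to 90%. At 90% or more the median over 12 tested mitochondrial mRNAs was -0.01, with none at an unadjusted p under 0.05. In the piRNA pathway 9 of 21 genes had an unadjusted p under 0.05, all higher in HFD against 9.21% of all genes, among them Piwil1 (0.57 ± 0.25) and Tdrd1 (0.69 ± 0.24). The piRNA list median was 0.32 in all gated barcodes. At 90% or more 0 of 21 had such a p (median 0.04), and at 50% to 90% 2 of 21 did (median 0.12). Piwil1, Tdrd5 and Mybl1 are on the axis, so choosing barcodes by range narrows their differences by construction.

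Fatty acid oxidation genes and targets of PPAR, the fat-sensing nuclear receptors, are a direct question of a high-fat diet. Of 20 tested, 2 had an unadjusted p under 0.05 (10.0%, below the 22.1% of all genes), and the median log2 difference was -0.12. Hadhb, a subunit gene of the mitochondrial trifunctional protein, had 114, 140 and 144 CPM in HFD and 101, 95.3 and 80.1 CPM in LFD (0.50 ± 0.15, adjusted p = 0.115 by edgeR, 0.0494 without HFD replicate 1). Like every gene, Hadhb did not pass without HFD replicate 2, HFD replicate 3 or LFD replicate 3. Plin2, which coats lipid droplets, had 32.4, 34.5 and 35.4 CPM against 43.3, 40.3 and 64.7 CPM (-0.56 ± 0.19, adjusted p = 0.134). The diets did not overlap for either gene. In thinned barcodes, Hadhb was detected on average in 82.8% of the Piwil1 gate, 57.2% of gated barcodes and 49.9% of the Ssxb gate. Plin2 went the other way, with 2.35%, 26.4% and 34.0%. At a spermatid share of 90% or more, 0 of 13 tested list genes had an unadjusted edgeR p under 0.05 (median log2 difference -0.03). At 50% to 90%, 1 of 12 did (median -0.03). The part of stage in the differences of Hadhb and Plin2 was not tested. Cpt1a, the rate-limiting step of fatty acid entry into mitochondria in most tissues, averaged at most 1.27 CPM in any range and had too few counts for the test, and Cpt1b, its muscle and testis form, had 44.6 to 57.1 CPM (-0.17 ± 0.16).

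Sertoli cell markers differed between diets, though none passed adjustment. The 12 Sertoli cell markers summed to 29.0, 10.2 and 8.68 CPM in HFD and 32.7, 71.7 and 76.5 CPM in LFD, which did not overlap, and all 9 that were tested had an unadjusted p under 0.05 and were lower in HFD (median log2 difference -2.22), against 12.9% of all genes. Within replicate 1 the sums were close. Between 50% and 90% this held for 8 of 8 tested markers (median -3.97), and at 90% or more for 3 of 6 (median -1.66). Macrophage and T-cell markers summed to 1.70 to 8.94 CPM, with Cd8a and Cd3g at 0 and 0 of 3 tested at an unadjusted p under 0.05, and Leydig, peritubular and stromal markers to 3.31 to 6.95 CPM, with Insl3 at 0 and 0 of 2 tested at such a p. The part of Sertoli transcripts in the differences above was not tested.

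The 3 genes with the smallest p were scarce. They were Gm49708, a non-coding gene on chromosome 16 (log2 difference -2.86 ± 0.52), and the X-linked genes 1700018G05Rik (-2.71 ± 0.52) and Gm9112 (-2.30 ± 0.46), each with an adjusted p of 0.106 by edgeR. 1700018G05Rik, the most abundant of them, had 0.661, 0.0986 and 0.122 CPM in HFD and 2.11, 1.46 and 2.90 CPM in LFD. In each of the 3 the diets did not overlap, and without HFD replicate 1 the adjusted p values by edgeR were 0.0376, 0.0138 and 0.0289. Without LFD replicate 1 they were 0.0247, 0.0256 and 0.0256, and without LFD replicate 2 they were 0.0307, 0.0027 and 0.0214. None of the 3 passed without HFD replicate 2, HFD replicate 3 or LFD replicate 3 (adjusted p by edgeR 0.257, 0.443 and 0.506 for each gene).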

How the data were processed

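UMI counts per gene and barcode were made by the authors with Cell Ranger 6.0.1 on mm10 and deposited per library as raw counts. The labels name a v2 3′ kit and the methods another version, so the chemistry is uncertain. Members, gene lists and the stage axis were chosen with earlier results of these data known. The gate was applied to all barcodes. Doublets were kept, and Scrublet scores (scanpy 1.11.5, highest 0.8% per 1000 barcodes of the library) were used as an alternative. Counts of gated barcodes were summed per library and tested with edgeR 4.0.16 (quasi-likelihood test, TMM, filterByExpr, Benjamini-Hochberg over all tested genes, call at adjusted p under 0.05), with DESeq2 1.42.0 as an alternative, both in R 4.3.3. The edgeR script was tested on simulated data. Shares were compared with two-sided exact permutation tests over libraries. CPM are counts scaled to the total of the pooled barcodes, and folds between gates used CPM plus 5. Genes named from the neighbouring gates were the 10 highest and 10 lowest at 50 CPM or more, and for diet, with no call, the 3 smallest p. Gene positions are from GENCODE M21 (GRCm38), and start-site sequences from RefSeq (GRCm38.p6). Iho1, Six6os1 and Spo16 were not found by name. Totals per library ranged from 39196921 to 95845514 UMIs. P-values measure the spread between 3 libraries per diet.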

Additional observations from a re-analysis of the deposited data

How the results depend on the processing

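The count of genes called between diets (0 of 15703) was 1535 with at least 10 Ccna1 and Aurka UMIs, 765 with DESeq2, 897 with no filter on low counts and 470 with the replicate number as a block. Deviations from the diet means correlated at -0.19, 0.23 and 0.10 in same-numbered libraries, and at -0.32 to 0.25 in differently numbered ones. With 3 libraries per diet these values cannot settle whether the replicate numbers pair the libraries. The block with GC and length trends taken out gave 0 calls (smallest adjusted p by edgeR 0.0880). Leaving out 1 library gave 0 to 1068 calls. Alternatives added after seeing the data gave 2163 calls within replicates 2 and 3, and without HFD replicate 1 they gave 6 calls with GC and length trends taken out, 2 between 50% and 90%, and 131 at 90% or more. The cause of these changes was not tested. The remaining 16 alternatives, leaving out HFD replicate 2, HFD replicate 3 or LFD replicate 3 among them, gave 0 calls. The difference in gated share turned positive with at least 10 UMIs of the gate genes (0.0256 points) and lay between -1.42 and 1.05 points with 1 library left out (0.749 without HFD replicate 2, 1.05 without LFD replicate 1). With barcodes of at least 10000 UMIs as denominator it was -7.04 points. The replicate block changed no call on the shares (p = 1.0 for the gated share, 0.25 for the mitochondrial share and 0.5 for the share at 90% or more, by exact sign flips that cannot go below 0.25). The mitochondrial difference stayed positive in all 15 alternatives (0.307 to 0.703 points), and the difference in the share at 90% or more stayed negative in all 14 (-19.9 to -3.38 points, the last with all genes of both lists on the axis). With 3 libraries per diet and a median SE of 0.22 on the log2 scale, small differences of single genes were not detectable.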
